A study of Homo sapiens with 6 samples.

Results

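MDM2, MDM4 and 7 direct transcriptional targets of the tumor suppressor p53 were followed in a knockdown of VprBP, the protein encoded by DCAF1. The 9 genes (MDM2, MDM4, CDKN1A, GDF15, SESN1, SESN2, BAX, BBC3 and FAS) were taken by symbol as well-known members of the pathway, and the rule itself uses no measured value, although earlier results of these data were known when it was set. All 9 were found among the 21494 genes of the table and all 9 passed the filter on low counts. RNA-seq had been run on 6 samples in 2 groups of 3. Control sh cells carried a control shRNA, and VprBP sh cells carried an shRNA against the coding region of VprBP. The knockdown shRNA was carried by the lentiviral vector pLKO.1 with puromycin selection, the vector of the control shRNA is not given in the sources used here, and the methods give a single shRNA sequence for the knockdown, so that the effect of that shRNA and the effect of losing VprBP cannot be told apart. The labels give G361, a human melanoma line, as the cell line and WT as the genotype of every sample, but name LD611 as the source. These names conflict, so the labels do not settle which line was sequenced. Nothing in the labels says that replicates came from separate cultures, so p-values measure the spread between these samples, which may be technical.

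p53 is a transcription factor that is kept low in unstressed cells by MDM2, a ubiquitin ligase that binds p53 and marks it for degradation. MDM4 is the structural relative of MDM2 that binds p53 and blocks its activity. When DNA damage or another stress frees p53 from both, it binds response elements near its target genes and switches on arrest of the cell cycle (CDKN1A), stress and growth signalling (GDF15, SESN1, SESN2) and cell death (BAX, BBC3, FAS). MDM2 is itself a p53 target, which closes a negative feedback loop. In melanoma the pathway is often restrained through MDM2, MDM4 or the CDKN2A locus.

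A p53 response element is a pair of 10-base half-sites, each with a C and a G at fixed places around an AT-rich centre. Because such elements are what makes these genes direct targets, the genome build hg38 was searched for them within 2500 bases of the annotated start of each member, on both strands. Pairs with a spacer of 0 or 1 base and at most 2 mismatches to the half-site consensus, with the C and the G of each half-site required, were kept. The best match of each gene that had one is printed 5′ to 3′ on the plus strand, with the 4-base core of each half-site in capitals.
CDKN1A: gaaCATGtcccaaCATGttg
MDM2: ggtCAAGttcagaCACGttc
FAS: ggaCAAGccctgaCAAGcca
GDF15: catCTTGcccagaCTTGtct
BAX: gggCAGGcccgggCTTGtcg
The CDKN1A match lay 2256 bases upstream of the start of the canonical transcript, at chr6:36676449-36676468. In MDM2 the match was intronic, 755 bases downstream of the start (chr12:68808923-68808942). The FAS match was also intronic, 520 bases downstream (chr10:88991309-88991328), as was that of BAX, 347 bases downstream (chr19:48955213-48955232). The GDF15 match was 841 bases upstream (chr19:18385308-18385327), yet inside the annotated gene. All of these distances are from the start of the canonical transcript. Each of the 5 had 2 mismatches and no spacer. A match of this kind was found for 5 of the 9 members and for 7.45% of 20033 protein-coding genes searched in the same way. In the narrower RefSeq promoter windows of GRCh38, from 250 bases before to 50 after a start, 2 of the 9 members (FAS and MDM2) and 0.674% of 27305 genes held one. All windows of a gene were searched, 4 for MDM2, 3 each for FAS and SESN1 and 1 for each other member. More sequence was thus searched for the 2 members with a match than for most. A match describes the letters only, and MDM4, SESN1, SESN2 and BBC3 had none in the wider window at this setting.

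The authors aligned reads to hg38 and deposited estimated counts per gene. Totals ran from 18195926 to 26883925 per sample. Mitochondrial genes took 1.96% to 1.98% of counts in Control sh against 4.10% to 4.48% in VprBP sh. Values are given below as normalized counts, which are rounded counts scaled by upper quartile factors. The comparison is VprBP sh over Control sh, tested with edgeR's quasi-likelihood test and Benjamini-Hochberg adjustment over 16756 genes. Calls required an adjusted p under 0.05 together with a fold change over 2. The groups differed broadly, with 46.4% of tested genes called, 24.5% higher and 22.0% lower in VprBP sh. An adjusted p under 0.05 at any fold was reached by 76.4% of tested genes, and 79.5% had groups that did not overlap.

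The targeted gene and the identity of the cells were read out first. DCAF1 had 789, 961 and 830 normalized counts in Control sh and 753, 502 and 477 in VprBP sh, a log2 fold change of -0.58 ± 0.17 (SE, n = 3 per group; edgeR adjusted p = 0.0125). The groups did not overlap, but VprBP sh replicate 1 lay just under the lowest control, and DCAF1 was not called. Exons of DCAF1 overlap those of RBM15B on the opposite strand, and reads in the shared part cannot be told apart without strand. Of 4 melanocyte markers in the table, MLANA and TYRP1 had at most 5 counts in any sample, and all 4 together summed to 197 to 234 normalized counts in Control sh, against 242 to 305 in VprBP sh. Of 6 urothelial and basal epithelial markers, summed to 92525 to 103939 in Control sh against 24142 to 27532 in VprBP sh, the basal keratin KRT5 dropped from 64337 ± 7836 to 3453 ± 1341 (mean ± SD, n = 3) and UPK1B, a urothelial surface protein, from 643 ± 61.2 to 0 in every sample, at least 222-fold lower. UPK2 fell from 209 ± 8.53 to 43.1 ± 13.5. GATA3 moved the other way, from 3.04 ± 4.36 to 1513 ± 203. The keratin KRT7 was abundant in both groups, at 34733 ± 1484 in Control sh against 21360 ± 3461, and made up most of the marker sum in VprBP sh. UPK1A had at most 5 counts in any sample. The other listed markers, TYR, DCT and SOX10 of melanocytes and UPK3A and KRT20 of epithelium, had no row in the table. Every gene in that table had at least 10 counts over all samples. MITF, the regulator of the melanocyte lineage, had 170 ± 13.8 and 234 ± 30.3 normalized counts. PMEL, a melanosome protein, had 35.2 ± 7.32 and 36.8 ± 1.70. Of the melanocyte markers, MLANA and TYRP1 were thus at or near 0, while PMEL and MITF were low but above the floor of 3 counts in every sample. Among the epithelial markers, 3 fell, 1 rose, KRT7 was not called and UPK1A was too low to test. In both groups the melanocyte sum was thus far below the epithelial sum, which is not the pattern of the melanoma label. Whether the cells were G361 was not tested, and the p53 results below carry that limit. The part of these differences in the results that follow was not tested, and a difference in the cells of the groups cannot be told apart from the knockdown. In bulk RNA, fewer cells of a type and less RNA per cell cannot be told apart either.

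**Figure D1:**
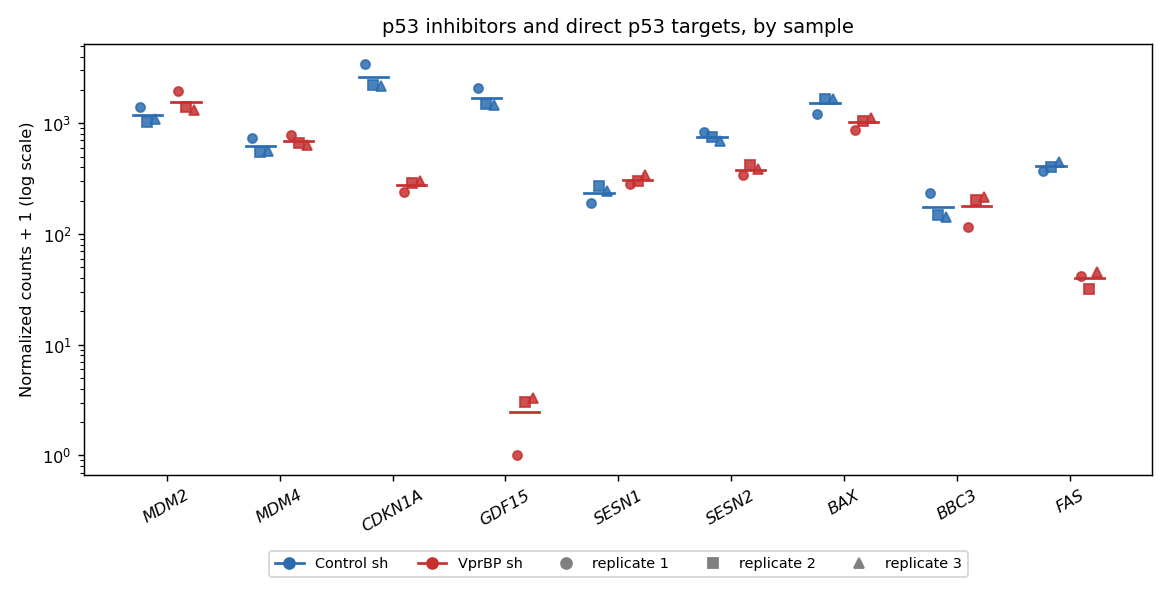
Normalized counts plus 1 (log axis) of MDM2, MDM4 and the 7 p53 targets in each of the 6 samples; marker shapes are replicates and horizontal lines are group means plus 1 (n = 3). CDKN1A, GDF15 and FAS are separated by wide gaps between groups, with GDF15 at 0 to 2.28 normalized counts in VprBP sh, while MDM2, MDM4 and BBC3 overlap.

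Of the 9 genes, 3 fell past the threshold in VprBP sh (CDKN1A, GDF15 and FAS), 0 rose past it and 6 were not called. At an unadjusted p under 0.05 without a fold limit, 2 of the 9 were higher and 5 lower, and the same numbers held at an adjusted p under 0.05. DESeq2 called 0 higher and 4 lower, and limma-voom 0 higher and 3 lower. Over all genes DESeq2 called 4077 higher and 4887 lower of 21492, and limma-voom 4112 higher and 3688 lower of 16756. Groups did not overlap for 6 of the 9. These shares stand beside the backgrounds of 22.0% called lower, 24.5% called higher and 79.5% not overlapping over all genes. An adjusted p under 0.05 at any fold was reached by 7 of the 9, beside 76.4% of all genes tested. The median log2 fold change of the 9 was -0.57, against 0.08 over all genes tested.

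The inhibitors come first. MDM2 (chr12:68808177-68845544) had 1409, 1026 and 1093 normalized counts in Control sh and 1941, 1412 and 1318 in VprBP sh. VprBP sh replicate 1 was the highest of the 6 samples, while replicate 2 lay just above the highest control and replicate 3 below it. The group means were 1176 ± 205 and 1557 ± 336 (SD, n = 3), and the log2 fold change was 0.40 ± 0.17 (SE), with an edgeR adjusted p of 0.0492. MDM2 was not called, and an exact permutation test on the 6 values gave p = 0.2 (two-sided), where 3 samples against 3 can reach no less than 0.1. An adjusted p under 0.05 was reached in 5 of the 14 alternatives that tested against no change. The estimate leaned on single samples, being 0.21 (adjusted p = 0.18) without VprBP sh replicate 1 and 0.55 (adjusted p = 0.0197) without Control sh replicate 1. The 3′ end of MDM2 shares exonic bases with CPM on the opposite strand, and whether counting used strand is not given in the sources used here. MDM2 exons also overlap a processed pseudogene on the same strand, where strand would not separate reads.

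MDM4 (chr1:204516379-204558120) had 738, 549 and 564 normalized counts in Control sh and 777, 668 and 636 in VprBP sh. The groups overlapped through Control sh replicate 1, which stood above 2 of the 3 VprBP sh samples. MDM4 had a log2 fold change of 0.17 ± 0.14, with an edgeR adjusted p of 0.293, and it was not called. The ratio of MDM2 to MDM4 counts within a sample, which does not depend on scaling between samples, was 1.91 ± 0.0351 in Control sh, and 2.23 ± 0.234 (SD, n = 3) in the VprBP sh samples. Every VprBP sh sample had the higher ratio, and the exact permutation p was 0.1, the smallest that this design allows.

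The p53 relatives, which bind the same kind of response element, moved far more than the inhibitors. TP63, the family member of basal epithelial cells, had 10000.0, 8254 and 8265 normalized counts in Control sh and 9.95, 8.23 and 9.87 in VprBP sh, 930-fold lower (edgeR adjusted p = 3.24e-10). Its counts in VprBP sh were 9, 8 and 13, so TP63 left the test when at least 10 counts were required in every sample. TP73 fell from 1478 ± 115 to 553 ± 170 (SD, n = 3), a log2 fold change of -1.41 ± 0.20 (edgeR adjusted p = 1.39e-04). Every VprBP sh sample was below every control for both genes. TP63 thus fell alongside the basal keratin KRT5 named above.

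Of 13 p53 relatives and regulators, 3 rose, 2 fell and 8 were not called, beside backgrounds of 24.5% called higher and 22.0% called lower over all genes. CDKN2A, whose locus encodes p16 and the MDM2 antagonist p14ARF, had 0 counts in all 3 Control sh samples and 2276, 3579 and 3372 normalized counts in VprBP sh, at least 973-fold higher against a floor of 3 counts per sample. The damage kinase ATM rose from 609 ± 74.9 to 1384 ± 50.6 (log2 fold change 1.19 ± 0.11), and CHEK1, the checkpoint kinase downstream of ATR, from 713 ± 42.7 to 1794 ± 149 (1.33 ± 0.10), with edgeR adjusted p of 6.07e-06 and 1.29e-06. The ubiquitin ligase RCHY1 sat at the fold limit, with a log2 fold change of 1.00 ± 0.15 that was not called, though it was called in 7 of 15 alternatives, among them without Control sh replicate 1 (1.01) or 2 (1.03) and without VprBP sh replicate 2 (1.04) or 3 (1.07). HIPK2, a kinase that phosphorylates p53, had 0.77 ± 0.20, and PPM1D, a phosphatase that switches the pathway off, had 0.63 ± 0.13. USP7, which removes ubiquitin from MDM2 and p53, had -0.34 ± 0.10. These 4 had an edgeR adjusted p under 0.05 without reaching a 2-fold change. ATR, CHEK2, TP53BP1 and COP1 lay between -0.03 and 0.11 on the log2 scale, with edgeR adjusted p from 0.524 to 0.862.

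**Figure D2:**
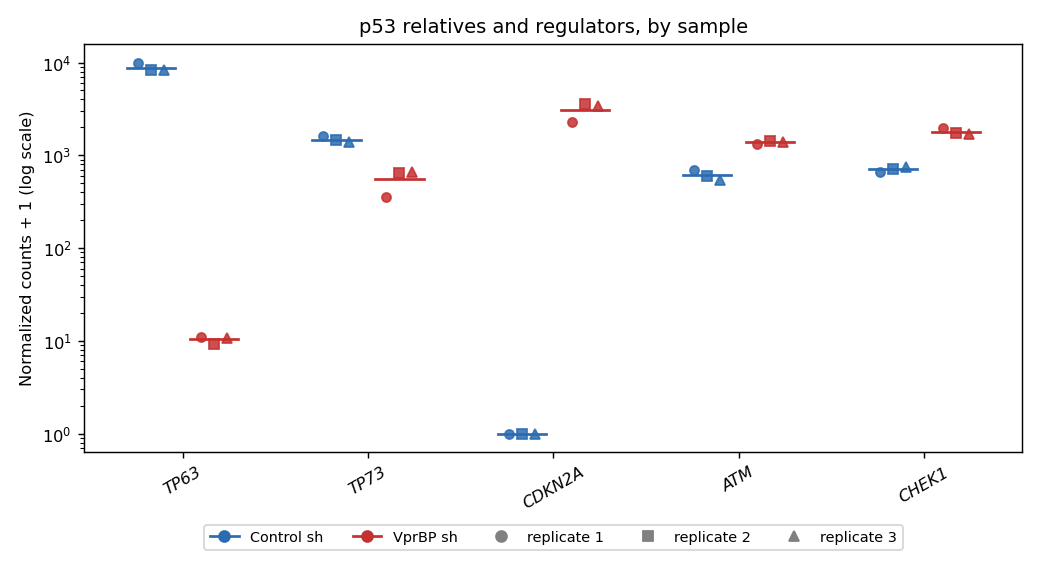
Normalized counts plus 1 (log axis) of the p53 relatives TP63 and TP73 and of CDKN2A, ATM and CHEK1 in each sample; marker shapes are replicates and horizontal lines are group means plus 1 (n = 3). TP63 lies at a mean of 8840 in Control sh and 9.35 in VprBP sh, and CDKN2A is at 0 counts in every Control sh sample.

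CDKN1A encodes p21, the inhibitor of cyclin-dependent kinases through which p53 arrests the cell cycle. CDKN1A (chr6:36676460-36687337) had 3454, 2206 and 2182 normalized counts in Control sh and 239, 288 and 301 in VprBP sh. All VprBP sh samples lay far below the lowest control, and replicate 1 was the highest control. The means were 2614 ± 727 and 276 ± 32.7 (SD, n = 3), a 9.44-fold decrease with a log2 fold change of -3.24 ± 0.20 (edgeR adjusted p = 3.53e-07). CDKN1A was called in all 15 alternative settings, between -3.40 and -2.99. Its exons overlap the antisense lncRNA DINOL, and reads of the pair cannot be told apart without strand.

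GDF15 encodes a secreted stress cytokine of the TGF-beta superfamily and showed the widest gap of the 9. Its rounded counts were 1814, 1385 and 1561 in the Control sh samples, but 0, 2 and 3 after knockdown. In normalized counts this was 2081, 1490 and 1465 against 0, 2.06 and 2.28, so that every VprBP sh sample was at or under the floor of 3 counts. Taken over the groups, 4760 counts stood against 5, a ratio of 1061 after scaling with an exact 95% counting interval of 454 to 3269, which covers counting error only. The edgeR adjusted p was 7.99e-09. The level left in VprBP sh was not distinguishable from 0 at this depth. GDF15 lies at chr19:18374731-18389176, with MIR3189 in an intron.

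The sestrins are stress proteins that restrain mTORC1, and the fold changes of the 2 members had opposite signs. SESN2 (chr1:28259518-28282491) had 825, 752 and 685 normalized counts in Control sh and 339, 418 and 386 in VprBP sh. The groups were well apart, at 754 ± 69.9 and 381 ± 39.4 (SD, n = 3). Its log2 fold change of -0.98 ± 0.12 (edgeR adjusted p = 4.65e-05) fell just short of 2-fold, so SESN2 was not called, and it was called in 6 of 15 alternatives, among them without Control sh replicate 3 (-1.05) or VprBP sh replicate 2 (-1.06). SESN1 (chr6:108984309-109094846) had 190, 270 and 242 normalized counts in Control sh and 282, 299 and 341 in VprBP sh. Here all VprBP sh samples were above all controls, by a narrow margin. The log2 fold change was 0.39 ± 0.16 with an edgeR adjusted p of 0.0427, below the 2-fold limit, and it missed an adjusted p of 0.05 in 8 of the 14 alternatives that tested against no change. The within-sample ratio of SESN1 to SESN2 counts was 0.231, 0.359 and 0.353 in Control sh and 0.831, 0.717 and 0.886 in VprBP sh (exact permutation p = 0.1, the smallest possible). SESN3, listed with the other targets, had a log2 fold change of -0.01 ± 0.16.

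The 3 members that act in cell death differed among themselves. FAS, the death receptor at the cell surface, had 372, 402 and 442 normalized counts in Control sh and 40.9, 30.9 and 44.0 in VprBP sh. Its values were tight within each group, and the means of 405 ± 35.2 and 38.6 ± 6.87 (SD, n = 3) made a 10.4-fold decrease (log2 fold change -3.38 ± 0.17; edgeR adjusted p = 1.18e-07). FAS (chr10:88953813-89029605) was called in all 15 alternatives, between -3.50 and -3.17. It overlaps exons of STAMBPL1 on the same strand and of ACTA2 on the opposite strand, so reads in the shared parts are uncertain.

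BAX, the pore-forming protein of the mitochondrial outer membrane, had 1213, 1657 and 1657 normalized counts in Control sh and 875, 1055 and 1111 in VprBP sh. All VprBP sh samples were below all controls, although the lowest control was close to the highest VprBP sh sample. The log2 fold change of BAX (chr19:48954815-48961798) was -0.57 ± 0.14, with an edgeR adjusted p of 0.00438, and it was not called. BBC3 encodes PUMA, a BH3-only protein that sets BAX free to act. BBC3 (chr19:47220822-47232766) had 233, 147 and 143 normalized counts in Control sh and 115, 203 and 216 in VprBP sh. Replicate 1 was the highest of one group and the lowest of the other, and the groups overlapped throughout. No difference was detectable, with a log2 fold change of 0.04 ± 0.27 (edgeR adjusted p = 0.892), and its sign turned with the scaling.

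**Figure D3:**
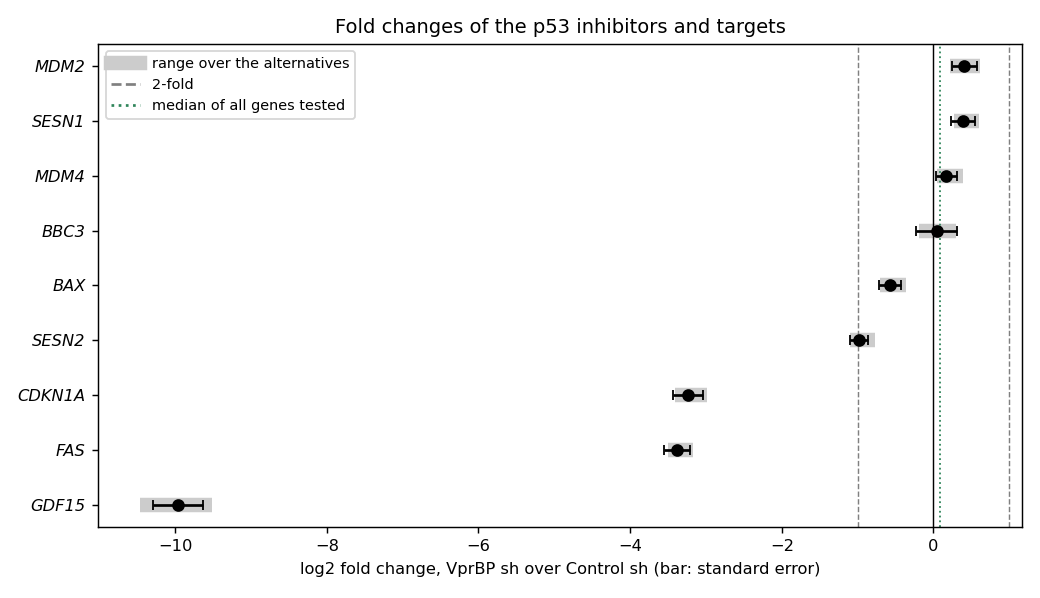
Log2 fold change (VprBP sh over Control sh) of each of the 9 genes with its standard error (black bar), the range over the alternative settings (gray band), the 2-fold limits (dashed) and the median of all genes tested (dotted, 0.08). GDF15 at -9.96, FAS at -3.38 and CDKN1A at -3.24 stand apart, SESN2 sits on the 2-fold limit, and BBC3 spans 0.

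Levels can be compared between genes only per length, here as normalized counts per kb of the union of a gene's exons. In Control sh the order of these levels was CDKN1A (873), GDF15 (805), BAX (583), SESN2 (218), MDM2 (142), MDM4 (56.0), BBC3 (54.7), SESN1 (32.2) and FAS (13.8). Sample ranges overlapped between CDKN1A and GDF15 and between MDM4 and BBC3, and other neighbours in the order were apart. In VprBP sh the order was BAX (392), MDM2 (187), SESN2 (110), CDKN1A (92.0), MDM4 (63.0), BBC3 (55.9), SESN1 (42.3), FAS (1.32) and GDF15 (0.692). SESN2 and CDKN1A overlapped there, as did MDM4, BBC3 and SESN1 as neighbours and FAS with GDF15. CDKN1A and GDF15, which led the control samples, thus ranked at places 4 and 9 after knockdown. The order depended on the length used. With the canonical transcript in its place, BAX led Control sh at 1898 per kb, ahead of GDF15 at 1399 and CDKN1A at 1235, and FAS rose from the ninth place to the sixth at 110, as its exon union is 29313 bases and its canonical transcript 3696.

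The members were read beside 45 other p53 targets, listed by role from general knowledge. Of these 44 were tested, and EDA2R had no row in the table. In VprBP sh 8 of the 44 rose, 16 fell and 20 were not called, and 36 had groups that did not overlap, beside 79.5% of all genes tested. Their median log2 fold change was -0.01, against 0.08 for all genes. Calls went in both directions but more often lower (16) than higher (8), where over all genes 24.5% were called higher and 22.0% lower. Whether this lean exceeds the background was not tested. No direction was common to all of the listed targets.

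Of 7 targets that arrest the cell cycle, 1 rose and 4 fell, with a median of -1.001. CCNG1, which feeds back on MDM2 through a phosphatase, rose from 967 ± 68.3 to 3422 ± 535. The antiproliferative gene BTG2 fell from 1279 ± 169 to 116 ± 16.7, much like CDKN1A. SFN, the 14-3-3 sigma protein of epithelial cells, fell from 22230 ± 1184 to 4583 ± 409. Among 10 targets in cell death, 2 rose, 4 fell and 4 were not called, with a median of -0.20. TP53I3, an oxidoreductase, rose with a log2 fold change of 2.80 ± 0.19, and AEN, a nuclease, with 1.498 ± 0.13. The death receptor TNFRSF10B, like FAS, fell, with a log2 fold change of -2.67 ± 0.10, and so did PMAIP1, which encodes NOXA, with -2.02 ± 0.13.

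Among 4 targets in DNA repair, 2 rose, 1 fell and 1 was not called. The translesion polymerase POLH rose by 1.68 ± 0.11 and the damage sensor XPC by 1.00 ± 0.12 on the log2 scale. XPC sat at the fold limit and was called in 9 of 15 alternatives, its call being lost with TMM factors (0.91), DESeq2 (0.89), no filter (0.98), the test against a 2-fold change, and without Control sh replicate 1 or VprBP sh replicate 3 (0.94 each). RRM2B, a ribonucleotide reductase subunit, had a log2 fold change of -1.37 ± 0.12. Of 9 targets in metabolism and stress, 2 rose (PANK1, 2.02 ± 0.14, and TIGAR, 1.74 ± 0.22), 1 fell and 6 were not called, with a median of 0.51. The gene that fell was DRAM1, a lysosomal protein in autophagy, at 3112 ± 378 in Control sh and 174 ± 9.16 in VprBP sh. In the last group of 14 targets with signalling and other roles, 1 rose (KITLG, 1.75 ± 0.10), 6 fell and 7 were not called. The receptor EPHA2 had a log2 fold change of -2.93 ± 0.08 and PML, the scaffold of nuclear bodies, of -2.00 ± 0.11. SPATA18 had 0 counts in every VprBP sh sample, at least 11.4-fold lower. The edgeR adjusted p of the genes named for these roles ran up to 5.22e-05.

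**Figure D4:**
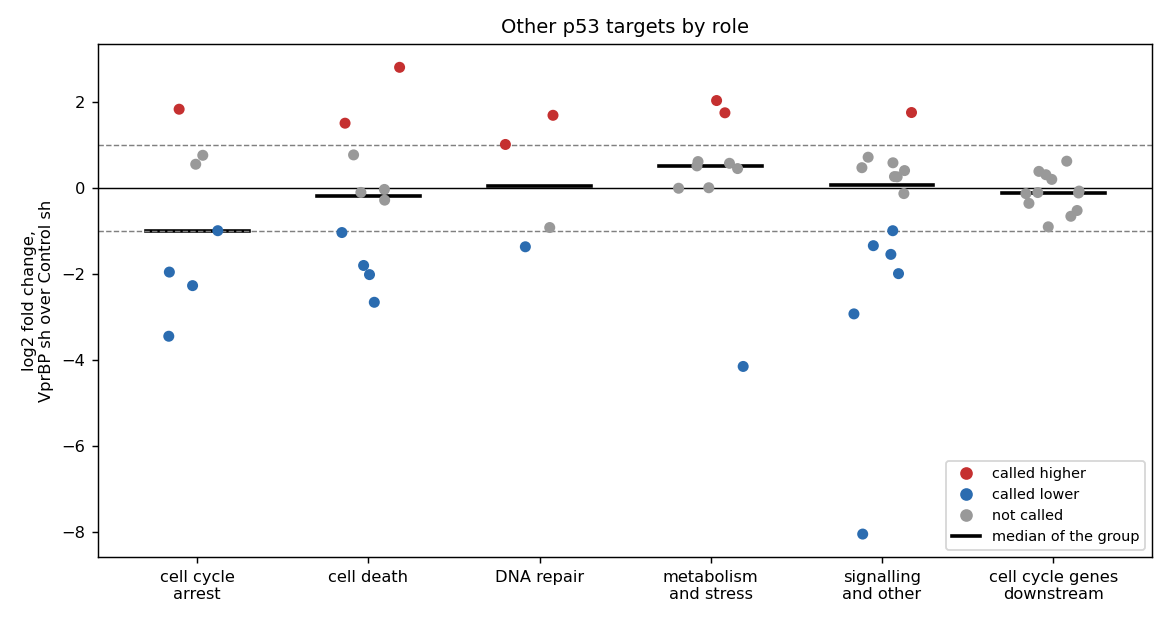
Log2 fold change (VprBP sh over Control sh) of each of the 44 other p53 targets by role and of 12 cell cycle genes; points are genes (red called higher, blue called lower, gray not called), black lines are group medians and dashed lines the 2-fold limits. Every role of the targets holds calls in both directions, and 0 of the 12 cell cycle genes are called.

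p21 arrests cells through the DREAM complex, which represses genes of the late cell cycle. With CDKN1A 9.44-fold lower, 12 such genes were read out, though any effect of CDKN1A on them was not tested. By edgeR 0 of the 12 were called in either direction, where 46.4% of all genes tested were called. At an unadjusted p under 0.05, 2 were higher and 4 lower, DESeq2 called 0 higher and 1 lower, and limma-voom called 0. An edgeR adjusted p under 0.05 at any fold was reached by 5 of the 12, beside 76.4% of all genes tested. The median log2 fold change of the 12 was -0.12. The mitotic kinases AURKA, at -0.91 ± 0.17, and AURKB, at -0.67 ± 0.08, were the lowest, and CDC20, which activates the anaphase-promoting complex, was the highest at 0.61 ± 0.13 (edgeR adjusted p = 7.12e-04, 4.86e-05 and 1.51e-03).

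The genes whose pattern was most like that of CDKN1A and of MDM2 were sought among 11551 protein-coding genes, as the distance over the 6 samples of centred log2 values. Nearest to CDKN1A were PIM1 at a distance of 0.173, IFITM2 at 0.250 and AHNAK2 at 0.251. PIM1 had 1754 normalized counts on average in Control sh and 185 in VprBP sh. Nearest to MDM2 were ENPP5 at 0.102, CREM at 0.191 and GMFB at 0.201, with log2 fold changes of 0.43, 0.44 and 0.43. A small distance implies a similar fold change, so this likeness follows from the search itself. None of these 6 is a member or a listed p53 target.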

How the data were processed

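RNA-seq of 6 samples (3 Control sh, 3 VprBP sh) was grouped by the sample titles. Library kits differ between the labels (SMARTER) and the study's methods (KAPA, strand-specific). Reads were aligned by the authors to hg38, and the authors deposited estimated counts per gene from Partek, neither normalized nor pooled (59.4% whole numbers, at least 10 per gene over all samples). The tests had been planned for counts, so values were rounded.

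edgeR 4.0.16 in R 4.3.3 was used with upper quartile factors, its filter on low counts (minimum 10) and no replicate block. Standard errors are the log2 fold change over the root of the F statistic. Intervals and the floor of 3 counts cover counting error only. Alternatives were TMM factors, library size alone, DESeq2 1.42.0, limma-voom 3.58.1, no filter, a minimum of 10 counts in each sample, the replicate number as a block, testing against 2-fold, dropping single samples, and summing replicates 2 and 3. The fits were tested on simulated counts with far fewer changed genes than here, which does not check the scaling. The search for response elements was tested on planted sites. Exons, overlaps and starts came from GENCODE 44, whose positions matched the table for all genes named with coordinates, and promoters from RefSeq (GRCh38).

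The members and lists were chosen with earlier results of these data known. Named are the 9 members, DCAF1, the p53 relatives and regulators (1 listed gene is not reported here), the 2 called genes with the largest rise and the 2 with the largest fall of each other list (where the higher group averaged 100 normalized counts or more), and the 3 protein-coding genes most like CDKN1A and MDM2. SPATA18, AURKA, AURKB, CDC20, SESN3 and the marker genes were named after their values were seen.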

Additional observations from a re-analysis of the deposited data

How the results depend on the processing

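Over the alternatives, 121 of 134 values of the 9 members kept direction and side of the threshold. SESN2 passed the 2-fold limit with TMM factors (-1.08), DESeq2 (-1.10), no filter on low counts (-1.01) and replicates 2 and 3 summed (-1.07), and ran from -1.06 to -0.91 on leaving out each sample. BBC3 turned negative with TMM factors (-0.057), DESeq2 (-0.085) and replicates 2 and 3 summed (-0.19), and ran from -0.13 to 0.30 on leaving out each sample. ATR turned negative with TMM factors (-0.060) and DESeq2 (-0.081), COP1 with TMM factors (-0.079), DESeq2 (-0.099) and no filter (-0.0032), CHEK2 with DESeq2 (-0.010), and TP53BP1 turned positive with library size alone (0.18). On leaving out each sample ATR ran from -0.11 to 0.11, CHEK2 from -0.015 to 0.21 and COP1 from -0.024 to 0.064. The cause was not tested. DCAF1 had an edgeR adjusted p of 0.0851 with library size alone and 0.0839 with replicates 2 and 3 summed, and under 0.05 in 12 of the 14 alternatives that tested against no change. With 1 mismatch allowed 0 members held a response element in either window, and with 3 mismatches 4 did in the promoter and 6 in the wider window, where 34.4% of genes had one. With at least 10 counts in every sample 4690 of 13103 genes were called in place of 7778, and GDF15, TP63 and CDKN2A were among the genes that left the test. Scaling by library size alone moved the median of all genes from 0.08 to 0.29 and the share of calls that were higher from 52.7% to 60.1%. Same-numbered samples did not deviate together (correlations of -0.072, 0.005 and -0.046). The replicate block called 7686 genes, with CDKN1A at -3.21 (edgeR adjusted p = 6.74e-05) and MDM2 at 0.40 (edgeR adjusted p = 0.00933), and changed the call of 0 members. Counts of at most 3 limit what can be said of GDF15 in VprBP sh.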

Other observations

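Control sh replicate 1 held the highest normalized count of its group for 6 of the 9 members (MDM2, MDM4, CDKN1A, GDF15, SESN2 and BBC3) and the lowest for the other 3 (SESN1, BAX and FAS). Without it, the log2 fold change of CDKN1A was -2.99 in place of -3.24, that of MDM4 was 0.31 (edgeR adjusted p = 0.0377) in place of 0.17, and the regulator HIPK2 passed the 2-fold limit at 1.09. VprBP sh replicate 1 was the lowest of its group for 6 of the 9 and the highest for MDM2 and MDM4.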
